A study of Sus scrofa with 28 samples.

Results

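SLC2A1, HIF1A, VEGFA and VEGFB are 4 of the 73 kidney genes measured by qPCR in the kidney cortex of 28 adult, castrated male Göttingen Minipigs. They were taken by name as a set around HIF1A, with the questions whether SLC2A1 and VEGFA move with HIF1A between animals and how VEGFA and VEGFB differ. The SD group (n = 7) ate a standard minipig diet. The FFC group (n = 13) ate a diet rich in fat, fructose and cholesterol for about a year, with more cholesterol in the first months than later. The FFC-DIA group (n = 8) ate the version with less cholesterol throughout, had diabetes induced by intravenous streptozotocin, which destroys the insulin-producing beta cells, and received insulin. The FFC-DIA and FFC groups therefore differ in early dietary cholesterol as well as in diabetes, and the parts of these in a difference cannot be told apart. Each animal is 1 replicate, and the tissue was a piece of the left kidney cortex.

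HIF1A encodes the oxygen-regulated subunit of hypoxia inducible factor 1. The protein is hydroxylated and degraded when oxygen is present, so the mRNA level is not a measure of the activity of the factor. SLC2A1 encodes GLUT1, a facilitative glucose transporter, and VEGFA encodes the growth factor that maintains glomerular and peritubular capillaries through VEGFR2. Both are textbook targets of hypoxia inducible factors. In the glomerulus VEGFA is made mainly by podocytes and acts on the neighbouring endothelium. VEGFB is a related ligand that binds VEGFR1 and neuropilin 1, and it is known for effects on lipid handling rather than for a hypoxia response.

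Each gene was read by 1 primer pair. The pairs are shown because they define the transcript each value stands for, and because the VEGFA and VEGFB assays must not read each other. They are written 5′ to 3′ and come from the study's primer list.
SLC2A1 forward: ctccctgcagtttggctaca
SLC2A1 reverse: gagatgctctccccatagcg
HIF1A forward: acttctgggccgctcaattt
HIF1A reverse: tccacctcttttggcaagca
VEGFA forward: tcaccaaggccagcacatag
VEGFA reverse: caaatgctttctccgctccg
VEGFB forward: ctggatgaagagacttgagggc
VEGFB reverse: gtaagatgccaactggcacaag
The longest run of bases shared by the VEGFA and VEGFB primers of the same direction was 4 bases. This compares primers with each other only, and a match of a primer to the other transcript was not tested.

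The deposited values are quantification cycles (Cq), where 1 cycle less means about 2-fold more template. The mean Cq over the 28 animals was 8.34 for HIF1A, 9.57 for VEGFB, 9.83 for SLC2A1 and 12.9 for VEGFA. These numbers belong to different primer pairs and do not rank the transcripts by abundance. Values are given on 2 scales, both log2 with the mean of the SD group at 0. The first is the log2 relative quantity, for which the Cq of a gene was subtracted from the mean Cq of 3 reference genes (ACTB, TBP1, RPL4). The second is the value relative to the panel mean, for which it was subtracted from the mean Cq of the 73 kidney genes of the same animal. The choice of scale matters here, because on the reference gene scale the median difference over the 73 genes was 0.55 for FFC minus SD, 0.21 for FFC-DIA minus SD and -0.33 for FFC-DIA minus FFC. RPL4 was latest in the FFC group, at a mean of 9.30 cycles, beside 7.86 in the SD and 8.11 in the FFC-DIA animals, and a late RPL4 raises every log2 relative quantity of its animal. The study's replicate listing held a single cDNA synthesis for 5 of 7 SD animals, 2 of 13 FFC animals and 1 of 8 FFC-DIA animals, and 2 syntheses for the others. The paper states that 2 were made from each RNA sample and that cDNA with many discordant assays was excluded. The part of this exclusion in the listed numbers was not tested.

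Among the 4 genes, SLC2A1 was lower in FFC-DIA than in FFC, and in the FFC group VEGFA was lower and VEGFB higher than in SD. HIF1A passed no test between groups on these 2 scales. With TBP1 as the only reference gene it was lower in FFC-DIA than in SD (-0.47, adjusted p = 0.0303) and FFC (-0.34, adjusted p = 0.00102). There 5 and 9 of the 73 genes passed. With RPL4 alone FFC exceeded SD (1.04, adjusted p = 0.0358), where 53 of the 73 genes passed and the median difference was 1.37. The p values are from exact permutation tests. The SLC2A1 difference was called on both scales, whereas the VEGFA and VEGFB differences were called on the reference gene scale only. The VEGFA and VEGFB calls were lost under most other ways of processing. The SLC2A1 call was lost with ACTB alone, RPL4 alone or all 4 reference genes. In pieces of whole cortex, fewer cells of a type and less mRNA per cell cannot be told apart.

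HIF1A is the factor of the set. Its log2 relative quantity ran from -0.38 to 0.47 in SD (median -0.05), from -0.35 to 1.06 in FFC (median 0.14) and from -0.37 to 0.39 in FFC-DIA (median -0.14). The 3 groups overlapped over most of their range, and only FFC animals 9 and 10 and FFC animal 8 lay above every SD animal. The mean difference was 0.22 for FFC minus SD (SE 0.15, adjusted p = 0.251), -0.09 for FFC-DIA minus SD (SE 0.14, adjusted p = 0.893) and -0.31 for FFC-DIA minus FFC (SE 0.13, adjusted p = 0.214), by two-sided exact permutation tests with Benjamini-Hochberg adjustment over the 73 genes. Relative to the panel mean the FFC minus SD difference was -0.29 (SE 0.10, adjusted p = 0.117 in the same exact permutation test), so its sign depended on the scale. On that scale 6 of 13 FFC animals and 5 of 8 FFC-DIA animals lay below all SD animals.

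SLC2A1, the glucose transporter, was lower in the diabetic animals than in FFC. Its log2 relative quantity ran from -0.35 to 0.28 in SD (median 0.06), from -0.55 to 1.42 in FFC (median 0.48) and from -1.60 to -0.01 in FFC-DIA (median -0.56). All 8 FFC-DIA animals were below the SD mean and below the FFC mean, and 4 of them were below all 13 FFC animals. As linear relative quantities the group means were 1.01 in SD (standard deviation 0.16, n = 7), 1.37 in FFC (standard deviation 0.52, n = 13) and 0.680 in FFC-DIA (standard deviation 0.205, n = 8). The log2 difference for FFC-DIA minus FFC was -0.99 (SE 0.23), which is 1.98-fold lower, with an adjusted p of 0.0105 in the exact permutation test. In this comparison 4 of the 73 genes (5.48%) passed, and SLC2A1 was 1 of 3 that were lower (4.11%). On the panel scale the difference was -0.71 (SE 0.21, adjusted p = 0.0261, exact permutation test), where 6 genes (8.22%) passed and 5 of the 8 FFC-DIA animals were below all FFC animals. The size followed the reference gene, with -0.43 against ACTB alone (adjusted p = 0.0893) and -1.52 against RPL4 alone (adjusted p = 0.121) in exact permutation tests. Among the animals with 2 cDNA syntheses (7 FFC-DIA and 11 FFC) the difference was -1.12, and with 1 synthesis (1 and 2 animals) it was -0.13.

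Against SD, SLC2A1 was -0.62 in FFC-DIA (SE 0.20). With 1 cDNA synthesis (1 FFC-DIA and 5 SD animals) it was -0.013 and with 2 (7 and 2 animals) -0.71. The unadjusted p was 0.00497 and the adjusted p 0.121 in the exact permutation test, in a comparison where 2 of 73 genes (2.74%) passed. On the panel scale it was -0.86 (SE 0.24, adjusted p = 0.0891, exact permutation test), where 3 genes (4.11%) passed, and on either scale 5 of 8 FFC-DIA animals were below all SD animals. Against ACTB and TBP1 without RPL4 the difference was -0.77 with an adjusted p of 0.0312, and without FFC-DIA animal 6 it was -0.71 with an adjusted p of 0.0425, both by exact permutation tests. The FFC minus SD difference was 0.36 (SE 0.17, adjusted p = 0.199) on the reference gene scale and -0.15 (SE 0.18, adjusted p = 0.8) relative to the panel mean, again by exact permutation tests. A permutation test of the F statistic over all 3 groups gave SLC2A1 a p of 0.00019 and a Bonferroni adjusted p of 0.0139, and 4 of 73 genes (5.48%) passed it. With values relative to the panel mean the Bonferroni adjusted p was 0.0723, where 2 genes (2.74%) passed, and without FFC-DIA animal 7, the animal with the lowest SLC2A1, it was 0.0949 on the reference gene scale.

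VEGFA, the capillary growth factor, was lower in FFC than in SD. Its log2 relative quantity ran from -0.60 to 0.54 in SD (median 0.02), from -1.60 to 0.22 in FFC (median -0.60) and from -1.46 to 0.79 in FFC-DIA (median -0.07). Of the FFC animals 12 of 13 lay below the SD mean and 7 lay below all SD animals, while the FFC-DIA animals spread over the ranges of both other groups. The FFC minus SD difference was -0.66 (SE 0.20, adjusted p = 0.0448, exact permutation test), 1.58-fold lower. VEGFA was the only gene called lower in this comparison (1 of 73, 1.37%), against 13 called higher (17.8%), so 14 genes (19.2%) passed in all. The difference was larger relative to the panel mean, -1.18 (SE 0.38), with an adjusted p of 0.117 in the exact permutation test, where 1 gene (1.37%) passed. In FFC-DIA the difference from SD was -0.24 (SE 0.30, adjusted p = 0.838), and FFC-DIA minus FFC was 0.42 (SE 0.29, adjusted p = 0.347), both by exact permutation tests.

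VEGFB moved the other way on the reference gene scale. Its log2 relative quantity ran from -0.47 to 0.27 in SD (median 0.11), from -0.21 to 1.53 in FFC (median 0.60) and from -0.30 to 0.86 in FFC-DIA (median 0.15). Of the FFC animals 10 lay above all SD animals and 12 of 13 above the SD mean. The FFC minus SD difference was 0.68 (SE 0.18, adjusted p = 0.0448, exact permutation test), 1.60-fold higher. This is close to the median of all 73 genes on that scale (0.55), and relative to the panel mean the difference was 0.16 (SE 0.14, adjusted p = 0.755, exact permutation test). Between FFC-DIA and SD the difference was 0.26 (SE 0.17, adjusted p = 0.66), and FFC-DIA minus FFC was -0.42 (SE 0.19, adjusted p = 0.231), both by exact permutation tests. The 3 comparisons share animals, so their values are not independent of each other.

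The FFC minus SD calls of VEGFA and VEGFB lay just inside the threshold. Leaving out 1 animal raised both adjusted p values to between 0.05 and 0.113 for each of SD animals 1, 2, 3, 4 and 7 and FFC animals 1, 2, 3, 5, 7, 8, 9 and 10, and for VEGFA also for FFC animal 12, while the difference stayed between -0.76 and -0.57 for VEGFA and between 0.60 and 0.75 for VEGFB. With ACTB and TBP1 without RPL4 the differences were -1.07 for VEGFA (adjusted p = 0.0909) and 0.27 for VEGFB (adjusted p = 0.243), and with RPL4 alone VEGFA turned to 0.16 (adjusted p = 0.448), by exact permutation tests. With the number of cDNA syntheses as a covariate they were -0.79 (adjusted p = 0.128) and 0.56 (adjusted p = 0.192) by permutation. Among animals with 2 syntheses (11 FFC and 2 SD) VEGFA was -0.56 and VEGFB 0.48, and with 1 synthesis (2 and 5 animals) they were -1.08 and 0.64.

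**Figure D1:**
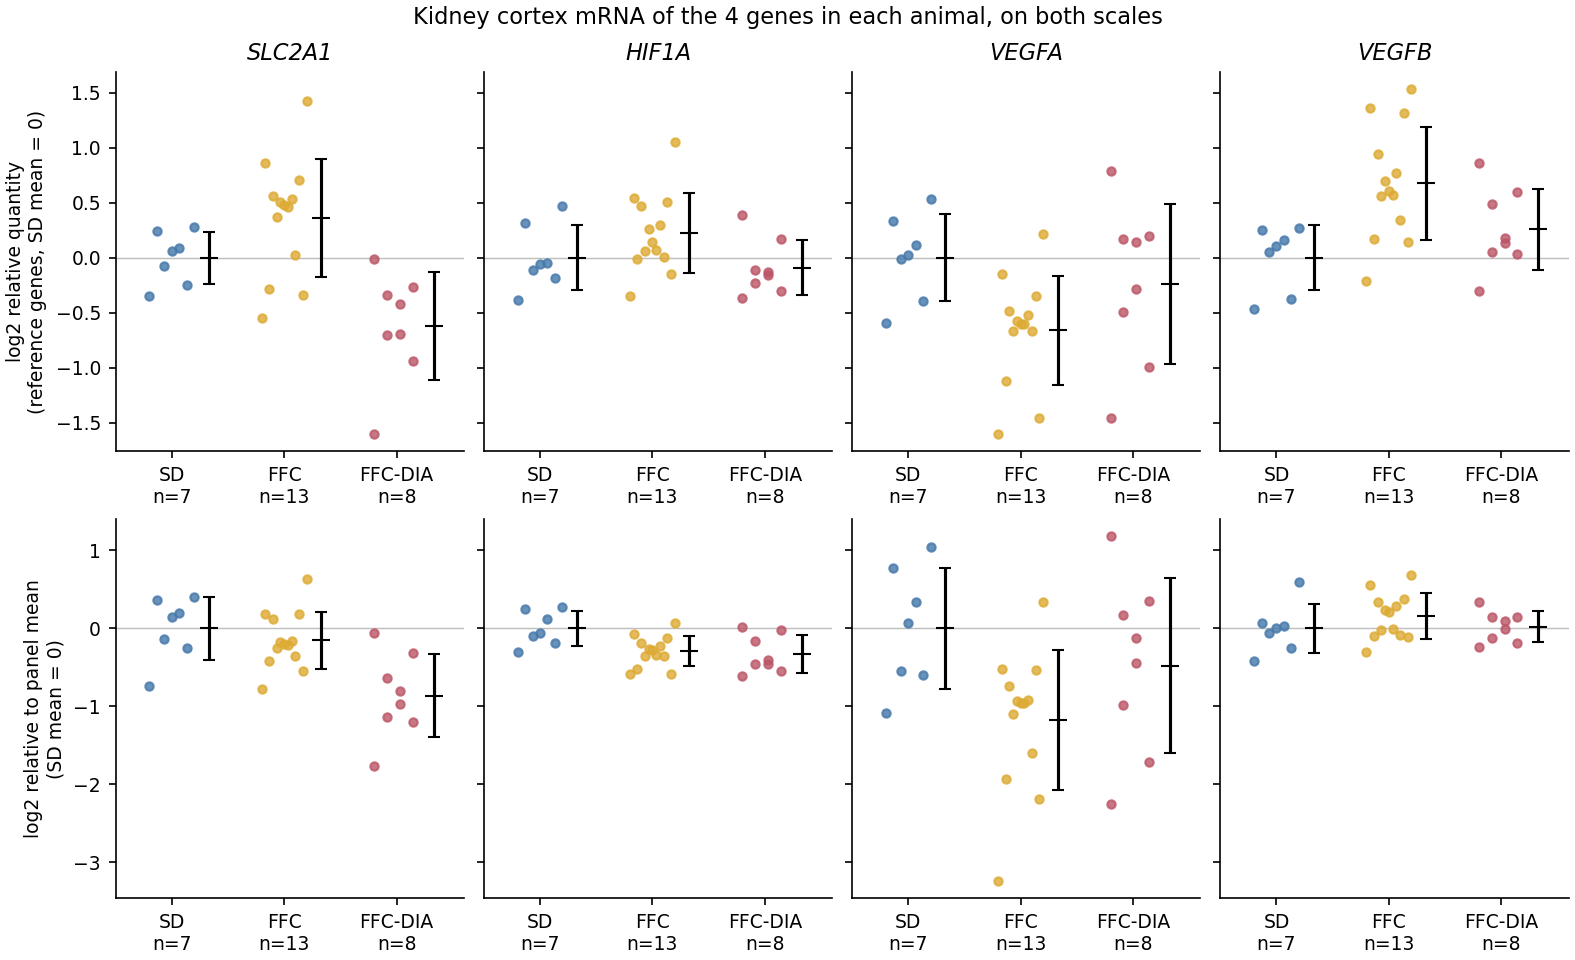
Log2 values of SLC2A1, HIF1A, VEGFA and VEGFB in every animal (points) of the SD (n = 7), FFC (n = 13) and FFC-DIA (n = 8) groups, with the group mean and standard deviation (black), relative to the reference genes ACTB, TBP1 and RPL4 (upper row) and to the panel mean (lower row), SD mean at 0. All 8 FFC-DIA animals are below 0 for SLC2A1 in both rows, VEGFA has the widest spread in the lower row, and the higher level of VEGFB in FFC is seen in the upper row.

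**Figure D2:**
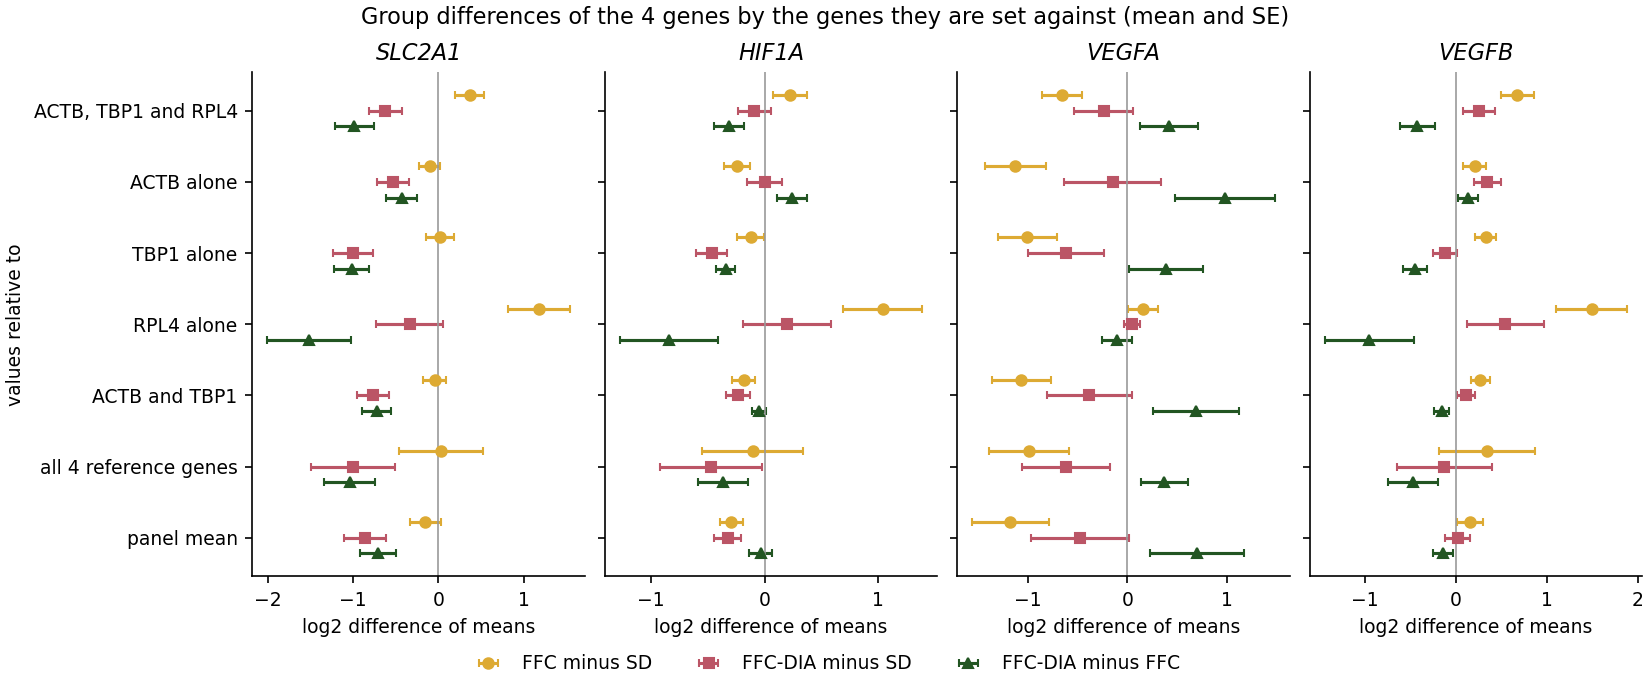
Log2 differences of group means (points) with their SE (bars) for the 4 genes, when each gene is set against the genes named on the vertical axis. SLC2A1 in FFC-DIA minus FFC is below 0 in every row, whereas VEGFA in FFC minus SD is below 0 in every row except RPL4 alone.

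A difference between 2 of the genes within an animal holds neither reference genes nor the panel mean. It was compared between groups for all 2628 pairs of kidney genes, and the adjusted p is over these. SLC2A1 fell relative to HIF1A in FFC-DIA. The log2 difference SLC2A1 minus HIF1A, with the SD mean at 0, ran from -0.56 to 0.29 in SD (median 0.12), from -0.28 to 0.57 in FFC (median 0.20) and from -1.30 to -0.04 in FFC-DIA (median -0.49). Of the FFC-DIA animals 6 of 8 were below all FFC animals and all 8 were below the FFC mean. The change from FFC to FFC-DIA was -0.67 (SE 0.16, adjusted p = 0.00772, exact permutation test), in a comparison where 5.82% of the gene pairs passed, and it passed without any 1 of the 21 animals, at values between -0.74 and -0.56. It was -0.74 among the animals with 2 cDNA syntheses (7 FFC-DIA and 11 FFC) and -0.26 among those with 1 (1 and 2 animals). Against SD it was -0.53 (SE 0.18, adjusted p = 0.131), where 5.02% of pairs passed, and FFC minus SD was 0.14 (SE 0.14, adjusted p = 0.737), where 0.457% passed, both by exact permutation tests. The pairs of members that follow here were not planned comparisons, and leaving out single animals was not run for them. SLC2A1 fell relative to VEGFB, by 0.57 from FFC to FFC-DIA (SE 0.18, adjusted p = 0.0302) and by 0.88 from SD to FFC-DIA (SE 0.21, adjusted p = 0.0368), by exact permutation tests. SLC2A1 minus VEGFB was below the SD mean in all 8 FFC-DIA animals and in all 13 FFC animals, and its FFC minus SD difference was -0.31 (SE 0.14, adjusted p = 0.193, exact permutation test). SLC2A1 minus VEGFA was 1.02 for FFC minus SD (adjusted p = 0.186) and -1.41 for FFC-DIA minus FFC (adjusted p = 0.0694). Its FFC-DIA minus SD value was -0.38 (adjusted p = 0.771). HIF1A minus VEGFB was -0.45 for FFC minus SD (adjusted p = 0.0878) and -0.35 for FFC-DIA minus SD (adjusted p = 0.193). From FFC to FFC-DIA it changed by 0.10 (adjusted p = 0.629). Neither of these 2 pairs passed the exact permutation test.

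The relation of VEGFA to VEGFB, the ligands of the set, was farther from that of SD in FFC than in FFC-DIA. VEGFA minus VEGFB ran from -0.85 to 1.00 in SD (median 0.06), from -3.13 to 0.43 in FFC (median -1.16) and from -2.06 to 1.09 in FFC-DIA (median -0.15). In FFC 12 of 13 animals were below the SD mean and 9 were below all SD animals, with FFC animal 9 lowest. The FFC minus SD change was -1.34 (SE 0.35), with an unadjusted p of 0.00377 and an adjusted p of 0.103 in the exact permutation test, so it did not pass. Without FFC animal 13, the only FFC animal above the SD mean, the adjusted p was 0.0362. The change was -1.04 among the animals with 2 cDNA syntheses and -1.72 among those with 1. FFC-DIA minus SD was -0.50 (SE 0.45, adjusted p = 0.713) and FFC-DIA minus FFC 0.84 (SE 0.46, adjusted p = 0.302), both by exact permutation tests.

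VEGFA minus HIF1A, the other target against its factor, ran from -0.91 to 0.92 in SD (median 0.07), from -2.65 to 0.56 in FFC (median -0.67) and from -1.84 to 1.16 in FFC-DIA (median 0.17). Again 12 of 13 FFC animals were below the SD mean, but only 4 were below all SD animals. The FFC minus SD change was -0.88 (SE 0.32, adjusted p = 0.212, exact permutation test). The other 2 changes were -0.15 for FFC-DIA minus SD (SE 0.41, adjusted p = 0.921) and 0.73 for FFC-DIA minus FFC (SE 0.41, adjusted p = 0.3), by the same test.

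**Figure D3:**
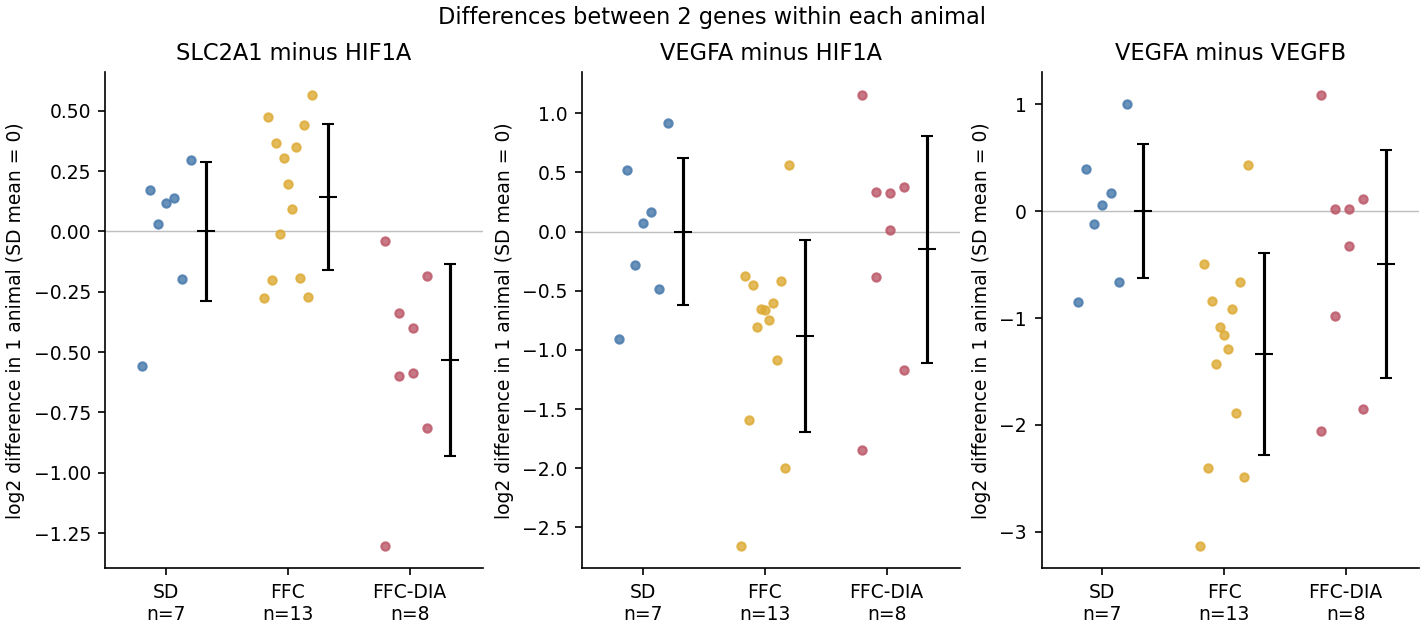
Log2 difference between 2 genes within each animal (points), SD mean at 0, with the group mean and standard deviation (black). SLC2A1 minus HIF1A is lowest in FFC-DIA, with 6 of 8 animals below all FFC animals, and VEGFA minus VEGFB is below the SD mean in 12 of 13 FFC animals.

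Whether the targets follow HIF1A was asked between animals, with the group means subtracted and over all 28 animals, so that group differences do not enter. Relative to the panel mean, HIF1A and SLC2A1 rose and fell together, with Pearson r = 0.66 (permutation p = 0.00039, adjusted p = 0.0233 over 2628 gene pairs) and Spearman rho = 0.62 (permutation p = 0.00122, adjusted p = 0.0513). HIF1A and VEGFA had r = 0.66 (permutation p = 0.00035, adjusted p = 0.0224) and rho = 0.73 (permutation p = 3e-05, adjusted p = 0.00985). Among all gene pairs 2.93% passed on this scale, and the median r was -0.0023. HIF1A also rose and fell with the reference genes on this scale, with r = 0.70 for TBP1, 0.61 for RPL4, 0.53 for GAPDH and 0.52 for ACTB. Without FFC animal 3 and FFC-DIA animal 1, the 2 animals farthest from the median of HIF1A, r was 0.56 (adjusted p = 0.136) for SLC2A1 and 0.62 (adjusted p = 0.0824) for VEGFA, so neither call held in these permutation tests although both values stayed positive. Leaving out 1 animal ended the SLC2A1 call for FFC animals 3 and 11 and FFC-DIA animal 4, with r between 0.61 and 0.70 and adjusted p up to 0.0903, and the VEGFA call for FFC animal 9 and FFC-DIA animal 1, with r between 0.61 and 0.70 and adjusted p up to 0.0668.

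HIF1A and VEGFB had r = 0.48 (permutation p = 0.00952, adjusted p = 0.143) and rho = 0.44, with r = 0.41 without the same 2 animals. Relative to the panel mean, the VEGF ligands were the least related of the pairs, with r = 0.22 (permutation p = 0.249, adjusted p = 0.611) and rho = 0.26, and r was 0.08 without FFC animal 9 and FFC-DIA animal 6. SLC2A1 and VEGFB had r = 0.62 (permutation p = 0.00026, adjusted p = 0.0197) and rho = 0.56 (adjusted p = 0.0746), with r = 0.61 without the 2 animals farthest in SLC2A1. SLC2A1 and VEGFA had r = 0.37 (permutation p = 0.0706, adjusted p = 0.374) and rho = 0.47, with r = 0.38 without the same 2.

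Within single groups on the same scale, the r of HIF1A and SLC2A1 was 0.73 in SD (0.45 without the 2 animals farthest in HIF1A), 0.55 in FFC (0.35) and 0.73 in FFC-DIA (0.24). The r of HIF1A and VEGFA in the same order of groups was 0.79 (0.79), 0.52 (0.31) and 0.75 (0.45). All 6 values were positive. None passed the permutation test (adjusted p from 0.488 to 0.719), and within a group 0% of the 2628 gene pairs did, with 187 (SD), 268 (FFC) and 197 (FFC-DIA) pairs at an unadjusted p under 0.05. Within animals of 2 cDNA syntheses (n = 20) r was 0.69 for SLC2A1 and 0.74 for VEGFA, and with 1 synthesis (n = 8) it was 0.79 and 0.56.

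On the reference gene scale the answer for SLC2A1 kept its sign and the answer for VEGFA turned. HIF1A and SLC2A1 had r = 0.71 (adjusted p = 0.000209), but on this scale the median r over all gene pairs was 0.46 and 55.3% of pairs passed the permutation test. HIF1A and VEGFA had r = -0.75 (adjusted p = 9.99e-05) and rho = -0.62, which put the pair at rank 2620 of 2628 from the highest r. The same sign stood in each group, with r = -0.61 for SD animals, -0.79 for FFC animals and -0.90 for FFC-DIA animals, and also in animals with 2 syntheses (-0.73) and with 1 (-0.82). VEGFA and VEGFB had r = -0.75 (adjusted p = 0.000209), against 0.81 (adjusted p = 9.99e-05) for HIF1A and VEGFB. Against ACTB and TBP1 without RPL4, r was 0.28 for HIF1A and SLC2A1 (adjusted p = 0.388), 0.12 for HIF1A and VEGFA (adjusted p = 0.728) and -0.40 for VEGFA and VEGFB (adjusted p = 0.161), by permutation. The direction of the relation of HIF1A and VEGFA thus depended on the scale.

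**Figure D4:**
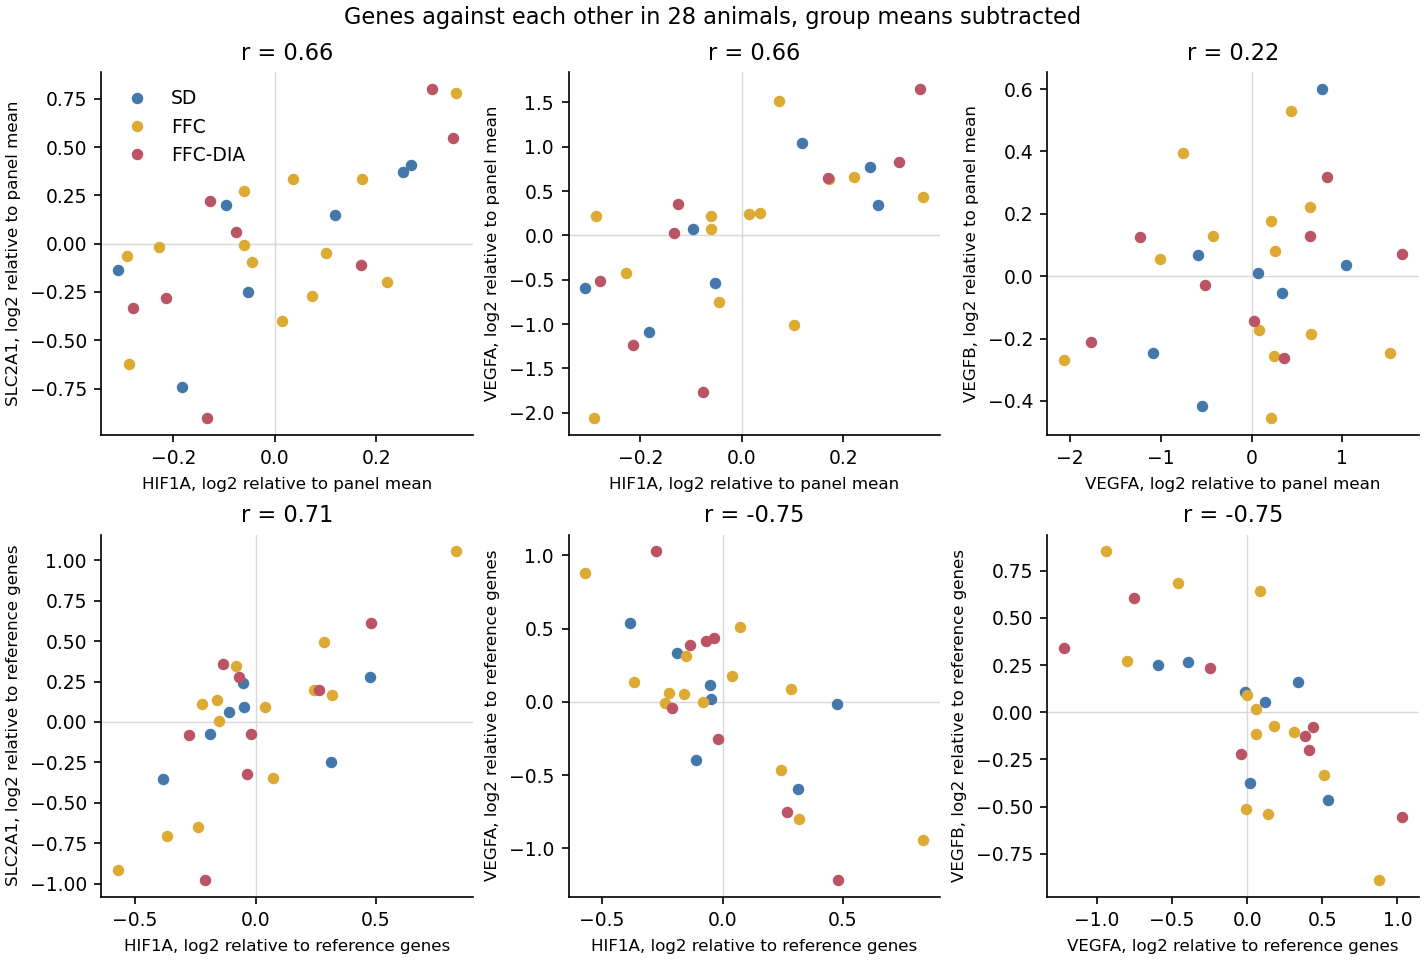
Log2 values of pairs of genes in 28 animals (points, coloured by group) with group means subtracted, relative to the panel mean (upper row) and to the reference genes ACTB, TBP1 and RPL4 (lower row). HIF1A and SLC2A1 slope upward in both rows, with r = 0.66 and 0.71, whereas HIF1A and VEGFA slope upward in the upper row (r = 0.66) and downward in the lower (r = -0.75).

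The spread of the difference between 2 genes within groups needs no scale, and it sets VEGFA apart from the other 3 genes. For HIF1A and VEGFB it was 0.25 log2 units, the 18th smallest of 2628 pairs. For SLC2A1 and HIF1A it was 0.33, rank 72, and for SLC2A1 and VEGFB 0.34, rank 77. The median over all pairs was 0.76. For VEGFA it was 0.81 against HIF1A (rank 1473), 0.88 against SLC2A1 (rank 1657) and 0.92 against VEGFB (rank 1750). So SLC2A1, HIF1A and VEGFB kept closer to each other from animal to animal than most pairs of the panel did, and VEGFA did not. The same 3 genes stood about as close to ACTB alone, at 0.26 for HIF1A, 0.24 for VEGFB and 0.34 for SLC2A1. Against TBP1 alone the spread was 0.21, 0.27 and 0.39, and against RPL4 alone 0.90, 1.02 and 1.00. The closeness was thus not particular to the set. These are descriptions, with no test.

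VEGFA instead kept close to RPL4, the ribosomal protein gene among the reference genes. Relative to the panel mean and with group means subtracted, VEGFA and RPL4 had r = 0.93 over 28 animals (permutation p = 1e-05, the smallest that 100000 permutations can give, adjusted p = 0.000487 over 292 relations of kidney genes with reference genes) and rho = 0.88 (adjusted p = 0.00073). VEGFA was the kidney gene with the highest r to RPL4 of all 73. Without the 2 animals farthest in RPL4 r was 0.90, and it was 0.95 in the animals with 2 cDNA syntheses and 0.997 in the 8 with 1. VEGFA also rose and fell with TBP1 (r = 0.76, adjusted p = 0.000487) and with GAPDH (r = 0.49, adjusted p = 0.00621, and 0.73 without the 2 animals farthest in GAPDH), by permutation, while its r to ACTB was 0.24 (adjusted p = 0.515). For the other members r to RPL4 was 0.61 for HIF1A (adjusted p = 0.0104), 0.24 for SLC2A1 (adjusted p = 0.524) and 0.12 for VEGFB (adjusted p = 0.785). HIF1A also passed by permutation with TBP1 (r = 0.70, adjusted p = 0.00239) and GAPDH (r = 0.53, adjusted p = 0.00389). VEGFB passed with ACTB (r = 0.64, adjusted p = 0.00487) and TBP1 (r = 0.53, adjusted p = 0.0414), and SLC2A1 with ACTB (r = 0.61, adjusted p = 0.011). Following a reference gene was thus not particular to VEGFA. These relations to reference genes were looked at after the values were seen.

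Set against RPL4 alone, VEGFA hardly varied in SD, from -0.20 to 0.23 (standard deviation 0.14, n = 7), and in FFC-DIA, from -0.27 to 0.24 (standard deviation 0.17, n = 8). In FFC it ran from -0.64 to 1.03 (standard deviation 0.50, n = 13). The group differences were then 0.16 for FFC minus SD (adjusted p = 0.448) and 0.05 for FFC-DIA minus SD (adjusted p = 0.74) by exact permutation tests. RPL4 itself, relative to the panel mean, had a mean of -1.33 in FFC (standard deviation 1.10, n = 13) and -0.52 in FFC-DIA (standard deviation 1.09, n = 8) with SD at 0. FFC animal 9 was lowest for both, at -3.87 for RPL4 and -3.24 for VEGFA. RPL4 is one of the 3 genes in the reference mean, so each log2 relative quantity holds a share of it with the opposite sign. The part of RPL4 in the VEGFA results was not tested beyond these values.

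**Figure D5:**
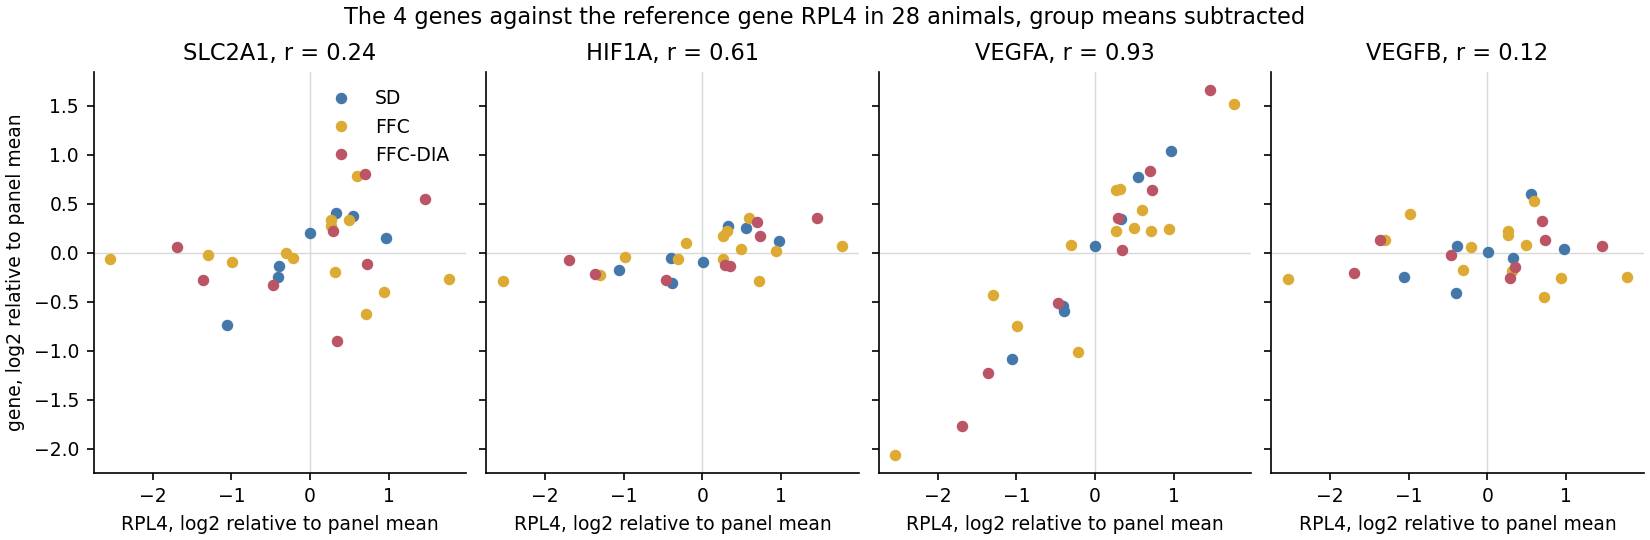
Log2 value of each of the 4 genes against that of the reference gene RPL4, both relative to the panel mean with group means subtracted, in 28 animals (points, coloured by group). VEGFA follows RPL4 (r = 0.93) and VEGFB does not (r = 0.12).

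The genes most like each member, among those reported here, were read from the same correlations relative to the panel mean, over 28 animals with group means subtracted. For SLC2A1 they were ACTN4, an actin crosslinker of podocyte foot processes (r = 0.71), SMAD4, the shared mediator of TGF-beta signals (r = 0.69), and LAMC1, a laminin chain of basement membranes (r = 0.69). For HIF1A they were LAMC1 (r = 0.68), SLC2A1 (r = 0.66) and VEGFA (r = 0.66). For VEGFA they were AGER, the receptor for advanced glycation end products (r = 0.82), the chemokine CXCL12 (r = 0.67) and HIF1A (r = 0.66). For VEGFB they were SMAD4 (r = 0.76), ACTN4 (r = 0.75) and CDH5, the cadherin of endothelial junctions (r = 0.62). SLC2A1 and VEGFB thus shared ACTN4 and SMAD4, SLC2A1 and HIF1A shared LAMC1, and none of the genes named for VEGFA was named for VEGFB.

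Of 11 other panel genes known as HIF targets or members of the HIF-1 pathway, 1 passed in each comparison on the reference gene scale, where 19.2% (FFC and SD), 2.74% (FFC-DIA and SD) and 5.48% (FFC-DIA and FFC) of all genes passed. CXCL12 was higher in FFC than in SD (0.86, SE 0.25, adjusted p = 0.0448), and its difference was 0.34 (adjusted p = 0.689) relative to the panel mean. CDKN1A, the cell cycle inhibitor p21, was higher in FFC-DIA than in SD (2.87, SE 0.34, adjusted p = 0.0113) and than in FFC (2.59, SE 0.31, adjusted p = 0.000359), and it passed on both scales. The median over the 11 genes was 0.72 for FFC minus SD, 0.34 for FFC-DIA minus SD and -0.52 for FFC-DIA minus FFC, beside 0.55, 0.21 and -0.33 over all 73 genes. On the panel scale the medians of the 11 genes were 0.20, 0.10 and -0.24. The p values are from exact permutation tests.

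The cortex markers bear on the cell types that make and receive VEGF. The mean log2 value of the podocyte markers NPHS1 and WT1 relative to the panel mean ran from -0.50 to 0.89 in SD, from -0.46 to 1.17 in FFC and from -0.39 to 0.82 in FFC-DIA. NPHS1, which encodes nephrin of the slit diaphragm, was higher in FFC than in SD on the reference gene scale (1.54, SE 0.38, adjusted p = 0.0448), and relative to the panel mean the difference was 1.02 (adjusted p = 0.117), by exact permutation tests. WT1, the podocyte transcription factor, differed by 0.25 (adjusted p = 0.397) and -0.26 (adjusted p = 0.8) on these scales in the same exact permutation tests. The same mean of the endothelial markers CDH5, NOS3 and VCAM1 ran from -0.29 to 0.30 in SD, from -0.24 to 0.67 in FFC and from -0.60 to 0.10 in FFC-DIA, and none of the 3 passed. Of all 15 markers, on the reference gene scale NPHS1 and MRC1, a macrophage receptor, passed in FFC against SD, where 19.2% of all genes did. The MRC1 difference was 0.86 (SE 0.26, adjusted p = 0.0448), and 0.34 (adjusted p = 0.373) relative to the panel mean, by exact permutation tests. NPHS1, MRC1 and CXCL12 no longer passed in FFC against SD with ACTB alone, TBP1 alone, both, all 4 reference genes or the cDNA number as a covariate. Relative to the panel mean CD8A, of cytotoxic T cells, was lower in FFC (-1.40, SE 0.35, adjusted p = 0.0264, 1.37% of genes passing) and in FFC-DIA (-1.04, SE 0.34, adjusted p = 0.0416, 4.11% passing) than in SD, and CD68, of macrophages, was higher in FFC-DIA than in FFC (0.72, SE 0.19, adjusted p = 0.0261, 8.22% passing), by exact permutation tests. On the reference gene scale neither CD8A nor CD68 passed in these comparisons. The median difference of the 3 T cell markers from SD was -0.13 in FFC and -0.19 in FFC-DIA relative to the panel mean. On the reference gene scale 2 of the 3 were higher in FFC than in SD. Of the 3 macrophage markers 2 were higher and 1 lower in FFC-DIA than in FFC relative to the panel mean. The part of these cell types in the results of the 4 genes was not tested.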

How the data were processed

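Kidney cortex RNA of 28 animals was reverse transcribed, pre-amplified and run by the authors as EvaGreen qPCR on 1 microfluidic chip, and the authors deposited Cq values (unit: PCR cycles, other than counts or signal) of 77 assays, 73 kidney genes and 4 reference genes, averaged per animal and not normalized. A deposited table of linear fold ratios was not used, because its SLC2A1 and HIF1A lines hold values of other genes. The correction for PCR efficiency was not repeated, and a factor of 2 per cycle was assumed. Groups came from the sample labels. Cohort is not given there, and its part was not tested. qPCR has no read depth, and the number of animals limits the precision.

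Pairs of groups were compared on log2 values by exact permutation (77520, 6435 and 203490 splits), with Benjamini-Hochberg adjustment over 73 genes or 2628 gene pairs, and the 3 groups by 100000 permutations of F with Bonferroni adjustment, threshold 0.05. SE are those for unequal variances. Correlations were permuted within groups. Named genes are the 4 members, list and marker genes that passed, and, of the genes reported here, the 3 most correlated with each member. WT1, NOS3 and VCAM1 are named outside this rule, chosen after their values were seen, to give their marker lists whole. Some genes are not reported here. Members and lists were chosen with earlier results of these data known. The number of cDNA syntheses was read from the study's replicate listing. Alternatives were other reference genes, the panel mean, linear and rank values, limma 3.58.1 (R 4.3.3), other adjustments, a replicate block, the cDNA number, late assays (mean Cq above 18) and leaving out animals. The scripts (Python 3.11.15, numpy 2.4.6, scipy 1.17.1) were tested on simulated data.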

Additional observations from a re-analysis of the deposited data

How the results depend on the processing

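The results were recomputed under each alternative, and the values given are log2 differences, F or correlations, with an adjusted p only where it is written as such. With RPL4 alone, 53 of 73 genes passed as higher in FFC than in SD, and the median difference was 1.37. For FFC minus SD, SLC2A1 turned to -0.10 with ACTB alone, -0.043 with ACTB and TBP1 and -0.15 on the panel mean, and was 1.18 with RPL4 alone (adjusted p = 0.0354). HIF1A turned to -0.24 with ACTB, -0.13 with TBP1, -0.18 with ACTB and TBP1, -0.11 with all 4 reference genes and -0.29 on the panel mean, and was 1.04 with RPL4 (adjusted p = 0.0358). VEGFA no longer passed with ACTB (-1.13), TBP1 (-1.01), ACTB and TBP1 (-1.07), all 4 (-0.99), the panel mean (-1.18), linear quantities (-0.36), ranks (-7.36 mean ranks), Bonferroni (-0.66), limma's moderated statistic (-0.66) or the cDNA number as a covariate (-0.79), and turned to 0.16 with RPL4. VEGFB no longer passed with ACTB (0.21), TBP1 (0.33), ACTB and TBP1 (0.27), all 4 (0.35), the panel mean (0.16), linear quantities (0.68), Bonferroni (0.68) or the cDNA number (0.56). For FFC-DIA minus SD, SLC2A1 passed with TBP1 (-1.002) and ACTB and TBP1 (-0.77), and HIF1A with TBP1 (-0.47), while HIF1A was 0.20 with RPL4 and 0.11 with the cDNA number, VEGFA 0.048 with RPL4, and VEGFB -0.12 with TBP1 and -0.12 with all 4. For FFC-DIA minus FFC, SLC2A1 did not pass with ACTB (-0.43), RPL4 (-1.52) or all 4 (-1.04), HIF1A was 0.24 with ACTB and -0.34 with TBP1 (adjusted p = 0.00102), VEGFA -0.11 with RPL4, and VEGFB 0.14 with ACTB and -0.45 with TBP1 (adjusted p = 0.0304). The SLC2A1 F of 11.0 was 5.61, 6.63, 4.23, 9.32 and 8.21 with ACTB, RPL4, all 4, the panel mean and linear quantities and then did not pass, that of HIF1A was 10.7 with TBP1 (adjusted p = 0.00657), and that of VEGFB, 6.10, passed with Benjamini-Hochberg adjustment (adjusted p = 0.0493). For the correlations, HIF1A and SLC2A1 did not pass with ACTB and TBP1 (r = 0.28), Spearman (rho = 0.62) or without the 2 farthest animals (r = 0.56), nor HIF1A and VEGFA with ACTB and TBP1 (r = 0.12) or without 2 animals (r = 0.62). On the reference gene scale r was -0.75 for HIF1A and VEGFA, 0.81 for HIF1A and VEGFB and -0.75 for VEGFA and VEGFB, the last -0.40 with ACTB and TBP1. With all 4 reference genes the comparisons with SD rest on SD animal 6, whose GAPDH Cq was 20.6 against 8.23 to 9.26 in the other SD animals. Without it, a setting added after seeing the data, FFC minus SD was 0.30 for HIF1A, -0.63 for VEGFA and 0.81 for VEGFB, with VEGFA and VEGFB still not passing, and VEGFB was 0.34 for FFC-DIA minus SD. Leaving out late assays changed no call. The cause of these changes was not tested.

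With single animals left out the FFC minus SD differences ran from 0.28 to 0.44 for SLC2A1, 0.15 to 0.30 for HIF1A, -0.76 to -0.57 for VEGFA and 0.60 to 0.75 for VEGFB. FFC-DIA minus SD ran from -0.71 to -0.48, -0.16 to -0.012, -0.39 to -0.066 and 0.17 to 0.34 in the same order, and FFC-DIA minus FFC from -1.08 to -0.85, -0.38 to -0.25, 0.27 to 0.59 and -0.51 to -0.34. F ran from 9.03 to 14.3 for SLC2A1. VEGFA minus VEGFB ran from -1.48 to -1.17 for FFC minus SD, and VEGFA minus HIF1A from -0.33 to 0.094 for FFC-DIA minus SD, positive without SD animal 7 or FFC-DIA animal 6. The correlations of HIF1A with SLC2A1 and with VEGFA each ran from 0.61 to 0.70.

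Replicate numbers are shared by groups but name no common origin. Deviations of same-numbered animals had a median correlation of -0.11 (FFC and SD), 0.17 (FFC-DIA and SD) and -0.14 (FFC-DIA and FFC), and 0 of 7, 1 of 7 and 0 of 8 animals correlated best with their own number. With this replicate block, which holds 7 or 8 animals a group, VEGFA was -0.57 and VEGFB 0.70 for FFC minus SD, and SLC2A1 -1.12 and SLC2A1 minus HIF1A -0.80 for FFC-DIA minus FFC, none of which passed. No kidney gene on the reference gene scale (0 of 73) and no difference between 2 genes (0 of 2628) passed with this block in any of the 3 comparisons. The smallest p of its exact test is 0.0156 with 7 blocks and 0.00781 with 8, and at least 23 or 12 of the 73 genes (822 or 411 of the pairs) would have to reach it for any to pass, so these lost calls say nothing about stability. The deposited fold-change table was listed as an alternative and was not run, because its lines for SLC2A1 and HIF1A hold other genes.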
